A study of Drosophila melanogaster with 6 samples.

Results

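LINE elements, the non-LTR retrotransposons of the Drosophila genome, were examined in eCLIP libraries of the protein Asterix (Gtsf1). The members were all annotated features of the LINE class, 4096 of 123041 features, and copies were summed by element name into 38 elements with between 2 and 885 copies each. They were reported as telomeric elements (HeT-A, TART, TART_B1 and TAHRE), elements of the ribosomal DNA (R1_DM and R2_DM), and the other R1, other Jockey, CR1, I and LOA superfamilies. The groups were 2 crosslinked IP libraries, 2 crosslinked inputs, 1 non-crosslinked IP and 1 non-crosslinked input. All 6 came from OSS cells, a culture line derived from the somatic sheath of the fly ovary. In every group the cells had been transfected with Asterix carrying a TEV-Strep tag at its C-terminus, driven by the act5c promoter, so the protein was not measured at its own level. Crosslinked cells had received 400 mJ of ultraviolet light at 254 nm. Lysates were treated with DNase and RNase I, the IP libraries hold RNA recovered on Strep-binding beads, and the inputs hold RNA of the lysate. A pull-down from cells without the tagged protein was not analysed here. The labels do not say that replicates came from separate cultures, so p-values measure the spread between these libraries, which may be technical.

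LINE elements move by copying their RNA into DNA at the place of insertion, and most genomic copies are broken at the 5′ end. In Drosophila, HeT-A, TART and TAHRE add themselves to chromosome ends and take the place of telomerase. R1 and R2 insert at fixed sites in the ribosomal RNA genes. Somatic ovarian cells silence transposons through Piwi and its small RNAs, the piRNAs, and Asterix is a zinc-finger protein required for transcriptional silencing in that pathway. eCLIP sequences the RNA fragments that stay with a protein, and comparison with the input shows which RNAs were over- or under-represented in the pull-down.

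The crosslinked IP libraries held 2206919 and 2921685 annotated reads and the non-crosslinked IP 2018241, against 12391586 and 13658478 in the crosslinked inputs and 12499302 in the non-crosslinked input. Ribosomal RNA took 68.0% and 69.5% of annotated reads in the crosslinked IP and 60.1% in the non-crosslinked IP, against 85.8% and 85.6% in the crosslinked inputs and 87.0% in the non-crosslinked input. Any level scaled to annotated reads (CPM, counts per 1000000 annotated reads) therefore contains this shift: with library size alone as the scale, the median log2 fold change of all entries tested, crosslinked IP over crosslinked input, was 0.80, against -0.07 with TMM scaling, which centres the bulk of entries near 0. Directions of LINE elements that turn between these scales are named below. Markers of somatic ovarian cells were present in the inputs, with a summed exon level of 320 to 395 CPM over 8 genes, none at or under the floor of 3 reads. Germline markers summed to 3.29 to 5.45 CPM over 8 genes in the inputs, and 6 of the 8 (vas, nos, aub, AGO3, bam and osk) were at or under that floor in all inputs. In the IP libraries the somatic sum was 418 to 757 CPM, with piwi alone at 207 and 144 CPM in the crosslinked libraries and 517 CPM in the other. Without piwi, 7 genes summed to 237 to 274 CPM in the IP libraries, against 296 to 360 CPM in the inputs. The germline sum was 14.3 to 18.0 CPM in the IP libraries, and aub made up 13.5 and 8.59 CPM of it with crosslinking and 2.73 CPM without. The part of the germline markers in the results below was not tested.

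LINE reads numbered 3308 and 3349 in the crosslinked IP and 3976 in the non-crosslinked IP, against 10197 and 11694 in the crosslinked inputs and 10613 in the non-crosslinked input. They made up 0.150% and 0.115% of annotated reads in the crosslinked IP (mean 0.132% ± 0.0249, SD, n = 2), against 0.0823% and 0.0856% in the crosslinked inputs (mean 0.0840% ± 0.00235, SD, n = 2). Both IP libraries were above both inputs, and the share was 1.58 times as high (two-sided exact permutation p = 0.333, the smallest that 2 libraries against 2 allow). Without crosslinking the share was 0.197% in the IP (Wilson 95% interval 0.191% to 0.203%) and 0.0849% in the input (0.0833% to 0.0865%), a ratio of 2.32. These intervals cover counting error only. Taken over annotated reads other than ribosomal RNA, the crosslinked log2 ratio of shares turned from 0.66 to -0.48.

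The make-up of the LINE reads does not depend on the scaling of the libraries, and it differed between IP and input. Telomeric elements held 15.1% and 17.5% of LINE reads in the crosslinked IP and 11.4% in the non-crosslinked IP, against 26.9% and 28.2% in the crosslinked inputs and 25.02% in the non-crosslinked input. Every IP library was below every input. The rDNA elements held 12.8% and 16.8% in the crosslinked IP and 9.65% in the non-crosslinked IP, against 20.6% and 17.0% in the crosslinked inputs and 24.5% in the non-crosslinked input; the nearest crosslinked IP and input values, 16.8% and 17.0%, almost met. CR1, a superfamily that holds 1 element here, DMCR1A, had 12.7% and 9.40% in the crosslinked IP and 18.7% in the non-crosslinked IP, against 2.85% and 2.72% in the crosslinked inputs and 5.30% in the non-crosslinked input. LOA, with the single element Baggins1, had 4.74% and 4.45% in the crosslinked IP and 5.04% in the non-crosslinked IP, against 0.716% and 0.731% in the crosslinked inputs and 0.525% in the non-crosslinked input. The other Jockey elements, 24 in number, kept a like portion everywhere: 37.2% and 34.9% in the crosslinked IP and 39.4% in the non-crosslinked IP, against 36.1% and 38.5% in the crosslinked inputs and 32.8% in the non-crosslinked input. Each of these comparisons of 2 crosslinked IP libraries with 2 inputs is a description, since no exact test of this size can pass 0.05.

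**Figure D1:**
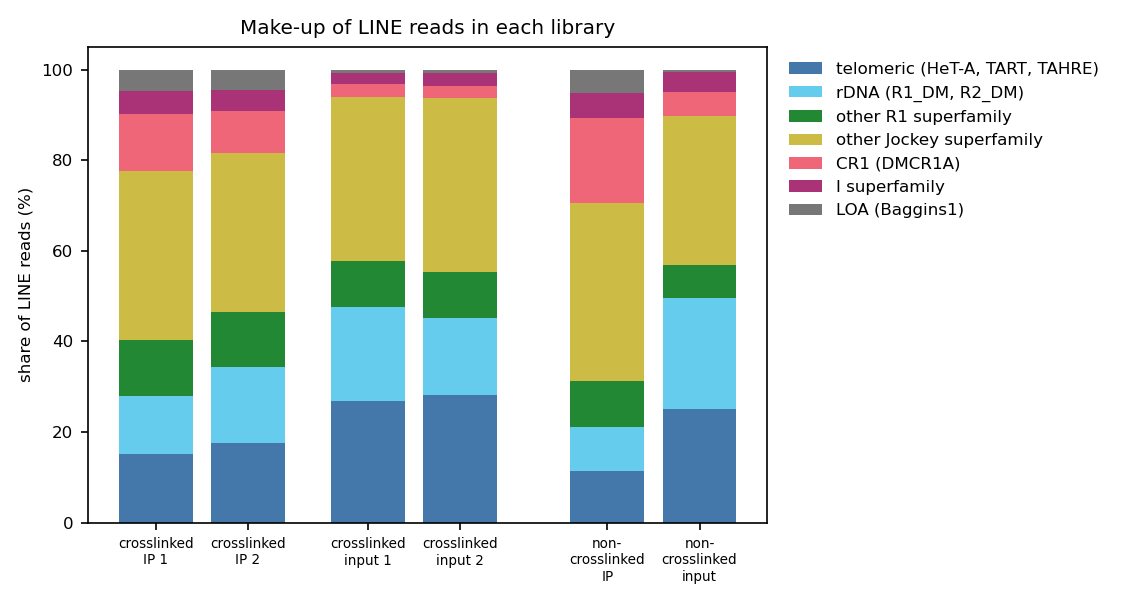
Share of LINE reads (%, vertical axis) held by each group of LINE elements in each of the 6 libraries, stacked to 100% of LINE reads. Telomeric elements take 15.1% and 17.5% in the crosslinked IP against 26.9% and 28.2% in the crosslinked inputs, while CR1 takes 12.7% and 9.40% against 2.85% and 2.72%.

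As a share of annotated reads, telomeric elements were at 0.0226% and 0.0201% in the crosslinked IP, against 0.0221% and 0.0242% in the crosslinked inputs, and the groups overlapped (log2 ratio -0.12, exact permutation p = 0.667). The LINE elements outside the telomeric and rDNA groups, 32 in number, were at 0.108% and 0.0753% in the crosslinked IP, against 0.0432% and 0.0469% in the crosslinked inputs (log2 ratio 1.03). The log2 ratio was 3.33 for LOA, 2.67 for CR1, 1.53 for I, 0.94 for the other R1, 0.61 for the other Jockey and 0.29 for the rDNA elements, each with both IP libraries above both inputs. Without ribosomal RNA in the total, the ratio turned negative for the other R1, other Jockey and rDNA groups and for the LINE elements outside the telomeric and rDNA groups, and stayed positive for LOA, CR1 and I.

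Element by element, crosslinked IP was compared with crosslinked input by edgeR's quasi-likelihood test over 8968 summed entries (elements, genes and anticodons of all classes), adjusted by Benjamini-Hochberg, at a threshold of 0.05. Of 38 LINE elements, 34 passed the filter on low counts, and 14 of these were higher, 11 lower and 9 not past the threshold. Among all 8968 entries, 31.2% were called higher and 27.8% lower, 59.0% in either direction, and the LINE shares, 14 and 11 of 34, stood near those of the whole table. The counts moved with the scale and with single libraries: 20 elements were higher and 1 lower with library size alone, 9 higher and 12 lower with library size without ribosomal RNA, 9 and 7 higher without crosslinked input replicate 1 or 2, and 6 lower without crosslinked IP replicate 2. Calls over all entries were not counted in these other settings, so the moved counts are not read as a trait of LINE elements. With TMM the median log2 fold change was 0.06 for LINE elements and -0.07 for all entries. For comparison, LTR elements, the other large class of retrotransposons, had a median of 0.92 with 53 of 99 higher and 9 lower, and introns had a median of 1.38. The 4 elements that the filter removed were TART_B1, R1-2_DM, BS4_DM and G7_DM, each with 9 reads or fewer in every library. In CPM, both crosslinked IP libraries were above both inputs for 25 of the 34 elements and below both for 5 (TART, DOC, DOC2_DM, DOC3_DM and DMRT1A), with overlap for 4; over all entries tested the shares were 58.8% above and 15.3% below.

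The direction of many elements rests on the scale. Across 4 scalings (TMM, DESeq2 size factors, library size alone and library size without ribosomal RNA), 10 elements were called higher in every scaling that tested them and 1, TART, was called lower in all 4. For 12 elements the sign of the fold change turned, and 11 others kept their sign without a call in all. How many of all entries kept a call in every scaling was not computed, so these counts are not read as a trait of LINE elements. From TMM to library size alone, the median log2 fold change moved from -0.07 to 0.80 for all entries. For LINE elements it moved from 0.06 to 0.94. HeT-A, TAHRE, R1_DM, R2_DM and FW_DM, called lower with TMM, were slightly positive with library size alone.

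**Figure D2:**
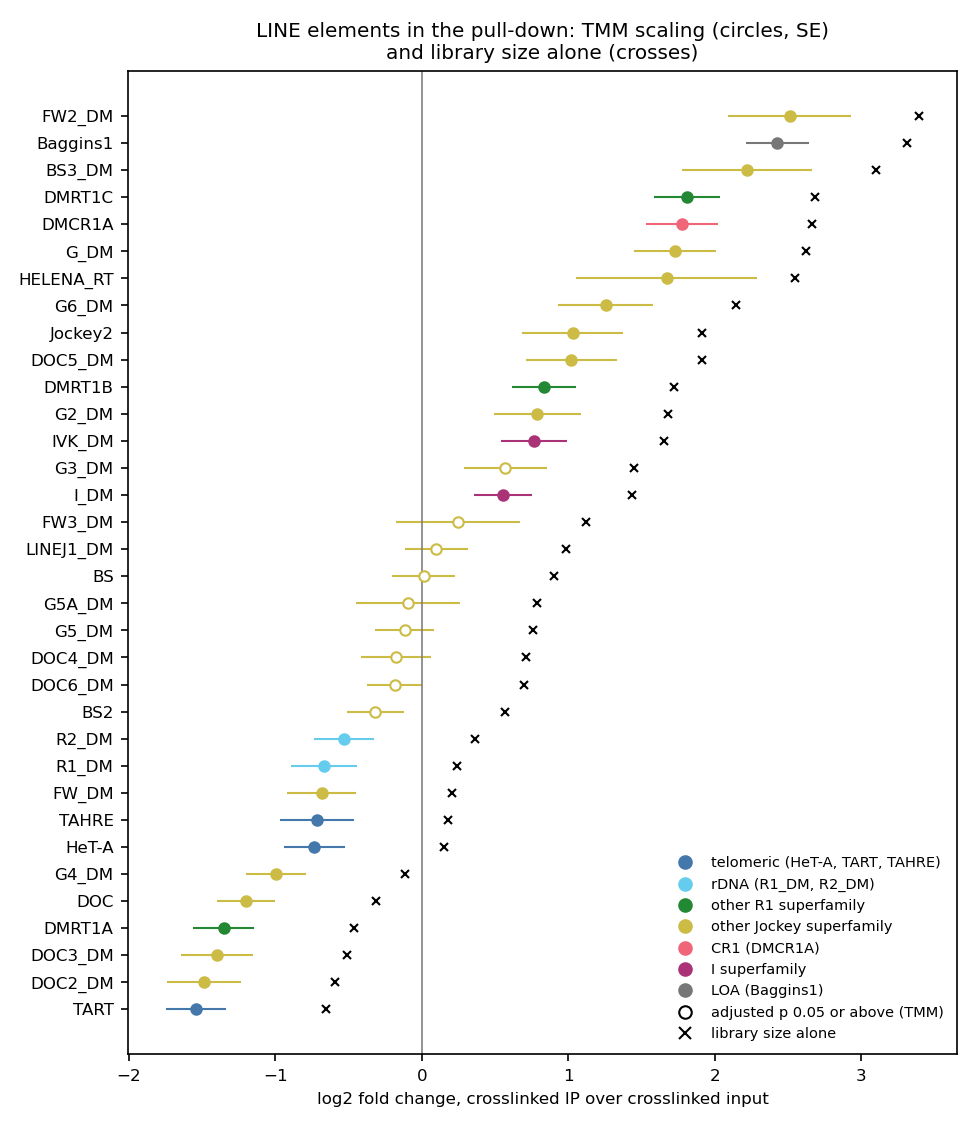
Log2 fold change of crosslinked IP over crosslinked input (horizontal axis) for the 34 LINE elements tested, with TMM scaling (circles, bars of 1 standard error, filled where the adjusted p is under 0.05) and with library size alone (crosses). TART lies left of 0 on both scales, while HeT-A at -0.74 moves to 0.15.

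With TMM scaling the 3 telomeric elements tested were lower in the pull-down than the bulk of entries, but TART alone was lower in all 4 scalings. TART, which encodes its own reverse transcriptase, had 66.2 and 55.3 CPM in the crosslinked IP, against 90.7 and 99.8 CPM in the crosslinked inputs. Both IP libraries were below both inputs, and the log2 fold change with TMM was -1.54 (SE 0.21, edgeR adjusted p = 8.60e-06); it was -0.66 with library size alone. HeT-A, which lacks a reverse transcriptase of its own, had 142 and 136 CPM in the crosslinked IP, against 119.6 and 131 CPM in the crosslinked inputs. In CPM both IP libraries were slightly above both inputs, whereas the TMM log2 fold change was -0.74 (SE 0.21, edgeR adjusted p = 0.0060), and it was 0.15 with library size alone. Without crosslinked IP replicate 1 the adjusted p was 0.129, and without replicate 2 it was 0.224. TAHRE, which is related to HeT-A and carries a reverse transcriptase, had 16.5 and 8.88 CPM in the crosslinked IP, against 10.9 CPM in both crosslinked inputs. Here the groups overlapped, and the TMM log2 fold change of -0.72 (standard error 0.25, edgeR adjusted p = 0.0221) moved to -0.04 without crosslinked IP replicate 2 and to 0.18 with library size alone; without crosslinked input replicate 1 its adjusted p was 0.0538. TART_B1, not tested, had 3 and 0.167 reads in the crosslinked IP, against 2 and 0 in the crosslinked inputs.

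The rDNA elements lay close to the telomeric ones. R1_DM had 117 and 105 CPM in the crosslinked IP, against 105 and 83.3 CPM in the crosslinked inputs, and the groups overlapped. Its TMM log2 fold change was -0.67 (SE 0.22, edgeR adjusted p = 0.0172), it was 0.24 with library size alone, and the call was lost without either crosslinked IP library or without crosslinked input replicate 1 (adjusted p = 0.106, 0.346 and 0.113). R2_DM had 74.3 and 88.1 CPM in the crosslinked IP, against 64.6 and 62.2 CPM in the crosslinked inputs. In CPM the IP was above the inputs, with TMM the log2 fold change was -0.53 (SE 0.20, edgeR adjusted p = 0.0321) and with library size alone it was 0.36; leaving out 3 of the 4 crosslinked libraries in turn, all but crosslinked input replicate 2, ended the call. The 28S ribosomal RNA, whose genes R1 and R2 interrupt, took 22.4% and 21.8% of annotated reads in the crosslinked IP, against 33.0% and 33.6% in the crosslinked inputs. Its part in the values of R1_DM and R2_DM was not tested.

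The other members of the R1 superfamily did not move as one. DMRT1B had 123 and 82.0 CPM in the crosslinked IP, against 31.0 and 30.8 CPM in the crosslinked inputs, and rose by a TMM log2 fold change of 0.83 (standard error 0.22, edgeR adjusted p = 0.0035), which was not past the threshold without crosslinked input replicate 2 (0.50, adjusted p = 0.200). DMRT1C had 20.4 and 24.0 CPM in the crosslinked IP, against 3.31 and 3.59 CPM in the crosslinked inputs, and rose by 1.81 on the log2 scale (SE 0.22, edgeR adjusted p = 3.80e-06). DMRT1A went the other way, with 42.1 and 31.8 CPM in the crosslinked IP, against 49.8 and 51.5 CPM in the crosslinked inputs (TMM log2 fold change -1.35, SE 0.21, edgeR adjusted p = 3.80e-05). For all of these the IP and input libraries did not overlap in CPM. R1-2_DM, not tested, had 2 and 9 reads in the crosslinked IP, against 5 and 3 in the crosslinked inputs.

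The CR1, LOA and I elements were higher in the pull-down with TMM, and their fold changes were positive in all 4 scalings. Across the 36 LINE elements with reads in every library, the crosslinked log2 CPM ratio fell with the log2 input level (Pearson r -0.71, Spearman rho -0.74). The input enters both sides of this correlation, so part of it is built in. The part of input level in the differences between telomeric, rDNA and other elements was not tested. Baggins1, the LOA element, had 71.1 and 51.0 CPM in the crosslinked IP, against 5.89 and 6.26 CPM in the crosslinked inputs, a TMM log2 fold change of 2.43 (standard error 0.21, edgeR adjusted p = 7.57e-08). DMCR1A, the CR1 element and the one with the most copies, had 190.4 and 108 CPM in the crosslinked IP, against 23.5 and 23.3 CPM in the crosslinked inputs, a TMM log2 fold change of 1.78 (standard error 0.25, edgeR adjusted p = 1.20e-05). The inputs agreed closely while the IP libraries were 58.5 CPM (SD) around a mean of 149 CPM. The I element, known for the hybrid dysgenesis it causes in the female germline, had 47.7 and 34.6 CPM in the crosslinked IP, against 13.5 and 16.6 CPM in the crosslinked inputs (I_DM, TMM log2 fold change 0.55, SE 0.20, edgeR adjusted p = 0.0246). IVK_DM, of the same superfamily, had 27.6 and 18.5 CPM in the crosslinked IP, against 7.18 and 7.25 CPM in the crosslinked inputs (TMM log2 fold change 0.76, SE 0.22, edgeR adjusted p = 0.0078). Both I elements lost their call without either crosslinked input, with adjusted p of 0.426 and 0.343 for I_DM and 0.100 and 0.293 for IVK_DM.

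Of the 22 other Jockey elements tested, 8 were higher, 5 lower and 9 not past the threshold, with a median TMM log2 fold change of 0.06 and a range of -1.49 to 2.51. The largest rises were those of FW2_DM and BS3_DM. FW2_DM had 12.5 and 7.53 CPM in the crosslinked IP, against 1.21 and 0.659 CPM in the crosslinked inputs (TMM log2 fold change 2.51, SE 0.42, edgeR adjusted p = 8.13e-05). BS3_DM had 12.3 and 5.13 CPM in the crosslinked IP, against 0.968 and 0.952 CPM in the crosslinked inputs (TMM log2 fold change 2.22, SE 0.44, edgeR adjusted p = 4.19e-04). The inputs of FW2_DM held only 15 and 9 reads, and those of BS3_DM 12 and 13. The largest falls were those of DOC2_DM and DOC3_DM, members of the Doc family. DOC3_DM had 44.6 and 23.5 CPM in the crosslinked IP, against 45.0 and 51.2 CPM in the crosslinked inputs (TMM log2 fold change -1.40, SE 0.24, edgeR adjusted p = 1.21e-04), and DOC2_DM had 14.9 and 7.64 CPM, against 15.8 and 17.1 CPM (-1.49, SE 0.25, edgeR adjusted p = 9.62e-05). In both, crosslinked IP replicate 1 lay just under the inputs and replicate 2 well below them. DOC3_DM was also among the 4 elements of this group with the highest mean CPM over the 6 libraries. The other members of those 4, BS2, LINEJ1_DM and DOC6_DM, had every crosslinked IP library above every crosslinked input in CPM, and none was past the threshold with TMM. BS2 had 71.8 and 61.3 CPM in the crosslinked IP, against 42.3 and 47.1 CPM in the crosslinked inputs (TMM log2 fold change -0.32, edgeR adjusted p = 0.166). LINEJ1_DM, the jockey element itself, had 74.1 and 47.5 CPM in the crosslinked IP, against 27.8 and 33.2 CPM in the crosslinked inputs (0.10, edgeR adjusted p = 0.702), and without crosslinked IP replicate 2 it was higher (0.65, adjusted p = 0.0095). DOC6_DM had 51.2 and 60.6 CPM in the crosslinked IP, against 32.3 and 36.8 CPM in the crosslinked inputs (-0.19, edgeR adjusted p = 0.409).

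**Figure D3:**
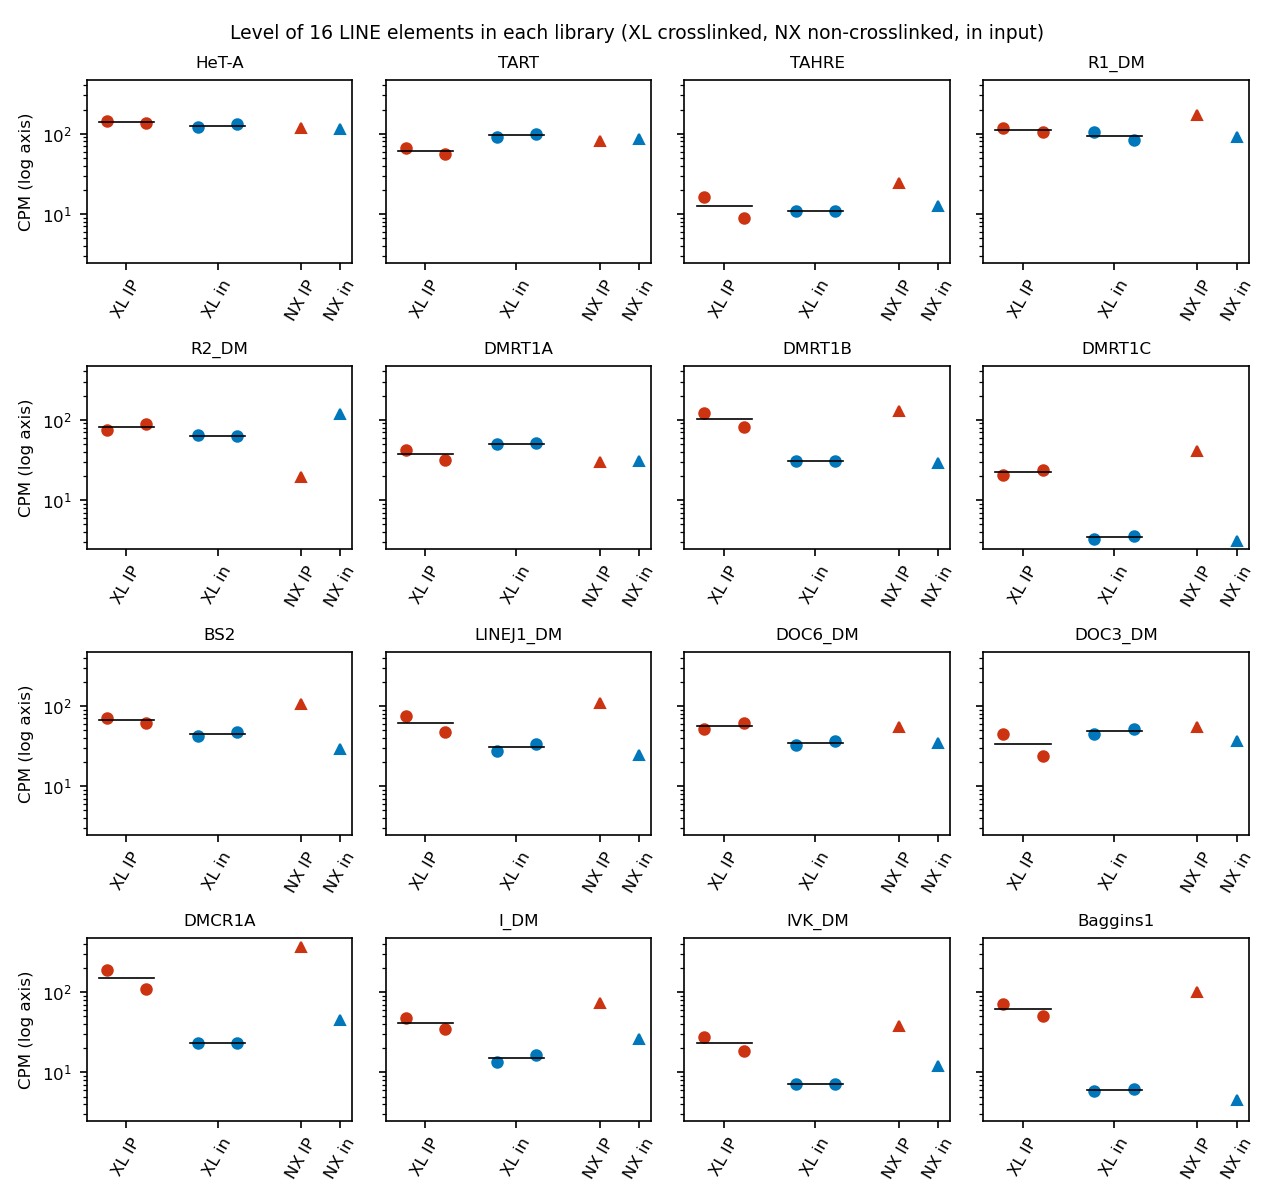
Level of 16 LINE elements in CPM (vertical log axis) in each library: red circles crosslinked IP, blue circles crosslinked input, with a line at the mean of each pair, red triangles non-crosslinked IP and blue triangles non-crosslinked input. Baggins1 and DMCR1A stand far above their inputs in all IP libraries, TART lies below its inputs, and R2_DM has 19.3 CPM in the non-crosslinked IP against 117 CPM in the non-crosslinked input.

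Summed values cover copies that did different things. Reads of these copies had been divided among features, and only 15.7% and 18.3% of LINE reads in the crosslinked IP and 6.29% and 6.11% in the crosslinked inputs lay in copies with a whole-number count, so near-identical copies share reads and are not independent. As single features, 154 of 4096 copies passed the filter; 40 were higher, 49 lower and 65 not past the threshold (edgeR over 13471 features, of which 29.6% were higher and 25.8% lower, 55.4% in either direction). A copy with hardly a read in the inputs could pass the filter only through the IP libraries and had to differ. Of the 40 higher copies, 28 had 3 reads or fewer in both crosslinked inputs and 36 had 3 reads or fewer in the non-crosslinked input. All 49 lower copies had at least 10 reads in both crosslinked inputs, and 6 of them had 3 reads or fewer in both crosslinked IP libraries. A copy with hardly a read in the IP libraries could likewise pass the filter only through the inputs. The input reads of the lower copies are thus no added support for their calls. Leaving out a crosslinked library in turn left 17 to 31 higher and 17 to 29 lower copies, the fewest higher without crosslinked IP replicate 1 (17) and replicate 2 (21); every library left out took the lower copies to 29 or fewer. The tested copies belonged to 27 elements, and 9 elements had copies in both directions. BS2 was among the 9, with 11 lower and 2 higher copies of 15 tested, although its summed CPM was above the inputs. Its higher copies, numbers 72 and 77, had 0 reads in both crosslinked inputs and passed the filter through the IP.

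In TART, HeT-A, TAHRE, R1_DM, R2_DM and DOC3_DM, the copy with the most reads was itself lower. That copy was chosen by reads summed over all 6 libraries. The inputs are deeper, so the choice favoured copies rich in input reads and leaned toward lower values. Its direction is therefore a description and not separate support for the element. No copy of TART_B1 was tested. Copy 24 of TART, numbered as in the annotation, held 18.7 and 22.6 reads in the crosslinked IP, against 205.2 and 245.7 in the crosslinked inputs (log2 fold change -1.87, SE 0.21, edgeR adjusted p = 2.34e-04), and copies 9, 15, 27 and 30 had nearly the same reads. Copy 9 of HeT-A held 30.5% of the element's reads in the crosslinked IP, against 39.2% in the crosslinked inputs, with a log2 fold change of -0.99 (standard error 0.19, edgeR adjusted p = 0.0030). In all, 5 of the 17 HeT-A copies tested were lower and 1 higher. Copy 30 of R1_DM was lower by more than the element (log2 fold change -1.39, SE 0.22, edgeR adjusted p = 0.0011), while none of the other 14 R1_DM copies tested was past the threshold. It held 40.0% of R1_DM reads in the crosslinked IP, against 69.4% in the crosslinked inputs. Nearly all R2_DM reads were on copy 5, 83.7% in the crosslinked IP against 96.4% in the crosslinked inputs, and the copy had a log2 fold change of -0.65 (standard error 0.20, edgeR adjusted p = 0.0250). The other 3 R2_DM copies tested, numbers 4, 7 and 11, were higher. Copy 295 of DOC3_DM held 15.2% of the element's reads in the crosslinked IP, against 49.0% in the crosslinked inputs, with a log2 fold change of -3.02 (standard error 0.23, edgeR adjusted p = 4.11e-05).

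Several elements had IP reads on copies that the inputs hardly held. Copy 228 of DMCR1A had 45.7 and 30.1 reads in the crosslinked IP and 126 in the non-crosslinked IP, against 1 and 0 in the crosslinked inputs and 0.5 in the non-crosslinked input. Of the 5 DMCR1A copies tested, 4 had 1 read or fewer in each crosslinked input, so they passed the filter through the IP and had to differ; no count of them is read. The number of DMCR1A copies that held 50% of its reads was 18 for the crosslinked IP, against 98 for the crosslinked inputs, so its IP reads were gathered on fewer copies. Elements differed in this. DOC5_DM went the same way (4 against 12), Baggins1 had 12 in both, and HeT-A (4 against 2) and DOC3_DM (9 against 2) went the other way. Copy 67 of LINEJ1_DM had 38.8 and 33 reads in the crosslinked IP and 81.5 in the non-crosslinked IP, against 0 in all inputs. Against a floor of 3 reads per library its level was at least 59.6-fold higher in the crosslinked IP than in the crosslinked inputs. This copy too passed the filter through the IP and had to differ, so the bound describes its reads and is not a test. The other 13 LINEJ1_DM copies tested were not past the threshold. Copy 140 of Baggins1 had 15.4 and 15.1 reads in the crosslinked IP and 67.5 in the non-crosslinked IP, against 1.03 in each crosslinked input and 0 in the non-crosslinked input. It likewise passed the filter through the IP. Of the 40 higher copies, 28 had more reads in the non-crosslinked IP than in any other library, although that library is the shallowest. Most of these copies had few input reads, so their maximum tended to lie in an IP library. The share over all higher features was not computed, and the count is not read as a trait of LINE copies.

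Where the reads of the IP libraries lay was also described by splitting the copies on the non-crosslinked input, into 3696 input-poor copies with fewer than 3 reads there and 400 with 3 or more. The split was chosen after the data were seen. Because it selects copies for few reads in an input, low values in the crosslinked inputs were built in, and the difference between IP and input is not a result. The input-poor copies carried 56.3% and 48.8% of LINE reads in the crosslinked IP and 65.1% in the non-crosslinked IP, with 19.5% and 18.5% in the crosslinked inputs. Nearly all copies of Baggins1 and DMCR1A were input-poor, 260 of 264 and 860 of 885, whereas HeT-A had 67 input-poor copies and 26 others. In the crosslinked IP, 17.3% and 15.6% of telomeric reads lay on input-poor copies, and 96.1% and 95.4% of CR1 reads did. The contrast between groups is not a result either, since the split depends on reads per copy in the non-crosslinked input. There DMCR1A had 562 reads over 885 copies, and HeT-A had 1433 reads over 93 copies.

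**Figure D4:**
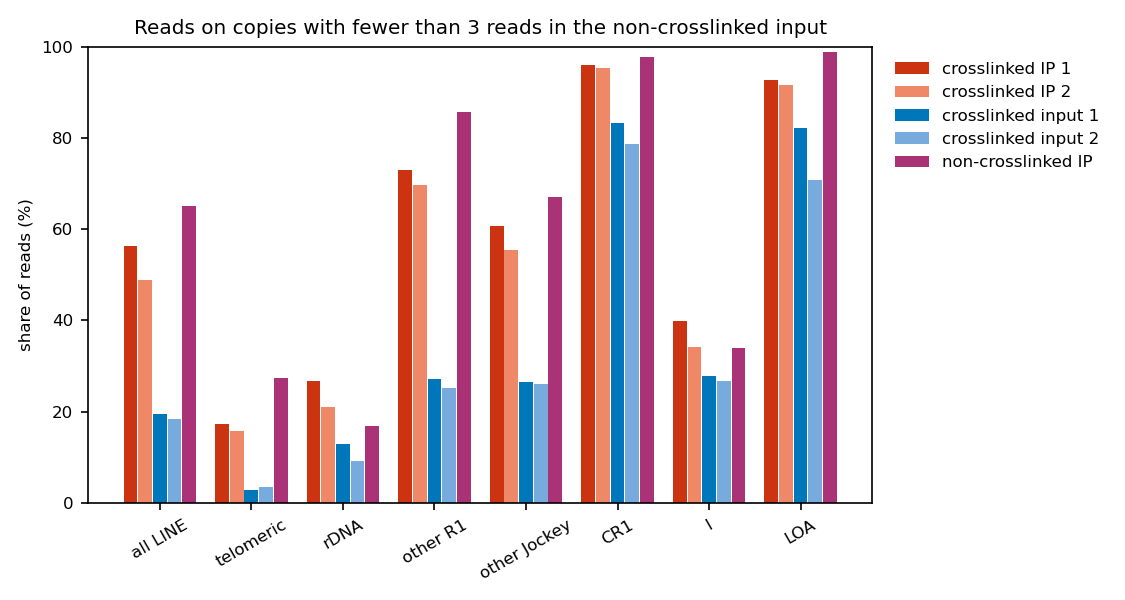
Share of reads (%, vertical axis) on copies with fewer than 3 reads in the non-crosslinked input, for all LINE elements and for each group, in the 2 crosslinked IP libraries, the 2 crosslinked inputs and the non-crosslinked IP. For all LINE elements the share is 56.3% and 48.8% in the crosslinked IP and 65.1% in the non-crosslinked IP, with 19.5% and 18.5% in the crosslinked inputs, where low values are built in by the choice of copies.

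Ultraviolet light joins RNA to protein, and the non-crosslinked IP holds what the beads recovered without that joint. For LINE elements this library resembled the crosslinked IP and was mostly the higher of them in CPM: it lay above both crosslinked IP libraries for 29 of the 36 elements in the joint fit of all 6 libraries, against 42.6% of all 11809 entries in that fit, and below both for 4 (DMRT1A, G3_DM, HeT-A and R2_DM), against 35.7%. Ribosomal RNA also took less of it, 60.1% against 68.0% and 69.5%. DMCR1A had 368 CPM in the non-crosslinked IP, above its 190.4 and 108 CPM in the crosslinked IP, against 45.0 CPM in the non-crosslinked input. Baggins1 had 99.3 CPM in the non-crosslinked IP, against 4.46 CPM in the non-crosslinked input. HeT-A had 119 CPM in the non-crosslinked IP, against 115 CPM in the non-crosslinked input, and TART had 80.5 CPM, against 85.2 CPM. R1_DM had 171 CPM in the non-crosslinked IP, against 91.3 CPM in the non-crosslinked input. With 1 library of each kind these non-crosslinked differences have no replicate check.

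The difference between the crosslinked and the non-crosslinked ratio of IP over input was tested in 1 edgeR fit of all 6 libraries, in which the single non-crosslinked libraries are assumed to vary like the others. Of 36 LINE elements, 1 was higher and 1 lower, and 34 were not past the threshold; over all 11809 entries 4.43% were higher and 2.85% lower, 7.27% in either direction. At an unadjusted p under 0.05 in the same edgeR test, 2 elements were higher and 7 lower. The shares of all entries at that unadjusted threshold were not computed, so these counts are not read as a trait of LINE elements. R2_DM was the element with the larger crosslinked ratio. It had 164 and 257.5 reads in the crosslinked IP and 39 in the non-crosslinked IP, against 801 and 849 in the crosslinked inputs and 1460 in the non-crosslinked input. In CPM these were 74.3 and 88.1 in the crosslinked IP and 19.3 in the non-crosslinked IP, against 64.6 and 62.2 in the crosslinked inputs and 117 in the non-crosslinked input. The log2 difference of ratios was 3.22 (SE 0.43, edgeR adjusted p = 2.30e-11); both the low IP and the high input of the non-crosslinked pair enter it. It ranged from 2.88 to 3.45 over the alternatives, and its adjusted p was 0.0649 without crosslinked input replicate 2. R1_DM, the other rDNA element, was not past the threshold. The 28S ribosomal RNA share was 22.4% and 21.8% in the crosslinked IP and 25.7% in the non-crosslinked IP, against 33.0% and 33.6% in the crosslinked inputs and 36.7% in the non-crosslinked input, and its part in the R2_DM difference was not tested.

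BS, a Jockey element named for this call, went the other way. Its level with crosslinking was 34.9 and 22.6 CPM in the IP, against 14.4 and 16.03 CPM in the inputs. Without crosslinking it was 62.9 CPM in the IP, against 11.4 CPM in the input. The log2 difference of ratios was -1.31 (SE 0.37, edgeR adjusted p = 0.0084). The call was lost without ribosomal RNA in the library size (adjusted p = 0.122) and without crosslinked input replicate 1 or 2 (0.239 and 0.288).

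**Figure D5:**
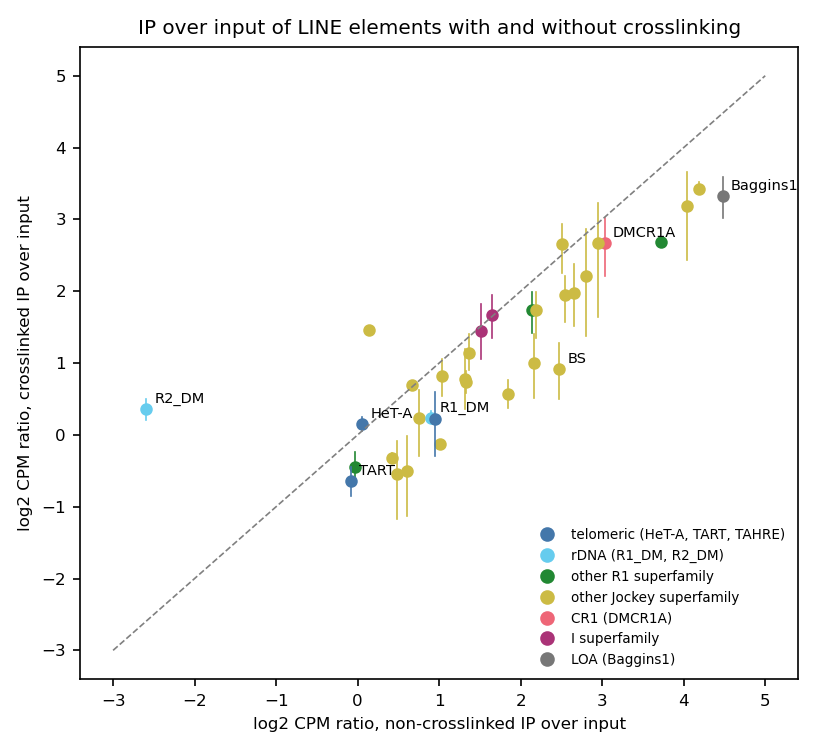
Log2 CPM ratio of IP over input for the 34 LINE elements with at least 3 reads in every library, crosslinked (vertical axis, points from group means, bars joining the ratios of the libraries numbered 1 and 2) against non-crosslinked (horizontal axis, 1 library each); the dashed line marks equal ratios. Most points lie on or below the line, and R2_DM stands apart to the left, with 19.3 CPM in the non-crosslinked IP against 117 CPM in the non-crosslinked input.

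Genes that act on these elements were followed as a list. Of 13 genes of telomere capping and of HeT-A and TART regulation, 10 were tested by their exons in the same fit; none was higher, 8 were lower, and the median log2 fold change was -1.32. Among them were Chro, which encodes a chromodomain protein (-1.26, SE 0.24, edgeR adjusted p = 2.95e-04), and woc, which encodes a zinc-finger protein at telomeres (-1.78, SE 0.21, edgeR adjusted p = 2.32e-06). Of 19 genes of transposon repression in somatic ovarian cells, 14 were tested, 9 were lower and 1, piwi, was higher (1.57, SE 0.22, edgeR adjusted p = 1.16e-05), with a list median of -1.12. Few introns of these genes were tested. That of mod(mdg4), the only one of the telomere list, was higher (1.58, SE 0.46, edgeR adjusted p = 0.0071), and of 3 in the repression list those of piwi (1.97, SE 0.46, edgeR adjusted p = 0.0017) and ctp (1.70, SE 0.30, edgeR adjusted p = 1.34e-04) were higher, and that of Mi-2, at 0.19, was not past the threshold. Introns as a class had a median of 1.38, with 1393 of 1985 higher and 26 lower. Exons as a class had a median of -0.53, with 863 of 5265 higher and 1838 lower. With TMM, the telomeric elements tested and the median of the telomere-gene exons were on the same side of 0, and so was the median of all exons. The exon of HipHop, of the telomere list, lay on the other side (0.46) and was not past the threshold. A link between the elements and these genes was not tested.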

How the data were processed

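Each library has a table with 2 value columns and no header. Column 2, as the authors deposited it, gives each feature an estimated count, with reads shared out among features of a class; column 3 gives the authors' RPM, which is column 2 scaled to its own total. Per the submitters' processing notes, bcl2fastq 2.19, STAR 2.5.2b and bedtools 2.29.0 were used and the builds dm6 and mm10 are named without a role; annotation, handling of multiply aligned reads, strand and duplicate removal are not given in the sources used here. A deposited table of ratios per feature, without header or formula, was not used. Unannotated reads (8.89% and 7.87% of the crosslinked IP, 13.6% of the non-crosslinked IP, 2.15% and 2.21% of the crosslinked inputs and 3.23% of the non-crosslinked input) stayed out of library sizes and tests.

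Features were summed by element, gene or anticodon within a class (30485 entries) and counts were rounded. Tests were two-sided quasi-likelihood F tests in edgeR 4.0.16 (R 4.3.3) with TMM, filterByExpr and Benjamini-Hochberg adjustment over the whole table; the SE is the fold change over the square root of F, and the common dispersion was 0.0185. On simulated counts with 200 of 8968 entries changed 4-fold, 67.0% were recovered in the comparison of crosslinked IP with crosslinked input, with 2.19% false calls, and 24.5% with 3.92% false calls in the fit of the difference (11809 entries). In the data, 59.0% of the 8968 entries were called, far more than were changed in the simulation. The simulated rates need not hold for the calls reported here. Replicate libraries differed beyond sampling noise (chi-square per degree of freedom 6.87 for the IP and 12.3 for the inputs). Alternatives were other scalings, filters, a replicate block, left-out libraries, DESeq2 1.42.0 and limma 3.58.1 on the deposited RPM with a pseudocount of 1. Named elements were the telomeric and rDNA ones, the 4 most abundant of each other superfamily and the largest changes; others are named where a small count covers them. The members and lists were chosen with earlier results of these data known.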

Additional observations from a re-analysis of the deposited data

Results flagged for a closer look

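R2_DM differed between the crosslinked and the non-crosslinked ratio of IP over input by 3.22 on the log2 scale (SE 0.43, edgeR adjusted p = 2.30e-11), by a test of that difference in the fit of all 6 libraries. BS differed by -1.31 (SE 0.37, edgeR adjusted p = 0.0084) in the same test. In the non-crosslinked arm each value rests on 1 IP and 1 input library.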

How the results depend on the processing

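The counts of elements higher and lower in the crosslinked IP, 14 and 11, moved by more than 1.5 times as follows. Library size alone gave 1 lower (20 higher), library size without ribosomal RNA 9 higher (12 lower), DESeq2's Wald test 8 higher and 7 lower, limma on the deposited RPM 4 lower (19 higher), a threshold of 0.01 7 lower, and the sum over copies with at least 3 reads in the non-crosslinked input 3 higher and 17 lower; that choice of copies by an input tilts this setting toward lower values. Leaving out each crosslinked library in turn gave 7 to 16 higher and 6 to 11 lower. For single copies, 40 higher and 49 lower, a minimum of 10 counts per library left 1 and 16, library size alone 52 and 21, and leaving out a library 17 to 31 and 17 to 29. For the difference between crosslinked and non-crosslinked ratios, 1 higher and 1 lower, the lower count was 2 with library size alone, 0 without ribosomal RNA and 5 where each library had to hold at least 10 counts, and leaving out a library gave 0 to 1 higher and 0 to 6 lower. With annotated reads other than ribosomal RNA as the total, the log2 ratio of shares turned to -0.48 for all LINE, -0.84 for rDNA, -0.19 for the other R1, -0.52 for the other Jockey and -0.11 for the elements outside the telomeric and rDNA groups.

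Of 466 values of single elements under an alternative for crosslinked IP against crosslinked input, 354 kept their sign and their side of the threshold, 56 lost a call, 13 gained one and 43, in 17 elements, turned in sign. With library size alone the log2 fold change turned to 0.57 for BS2, 0.71 for DOC4_DM, 0.70 for DOC6_DM, 0.21 for FW_DM, 0.78 for G5A_DM, 0.76 for G5_DM, 0.15 for HeT-A, 0.24 for R1_DM, 0.36 for R2_DM and 0.18 for TAHRE. With limma on the deposited RPM it turned to 0.47 for BS2, 0.58 for DOC4_DM, 0.58 for DOC6_DM, 0.071 for FW_DM, 0.55 for G5A_DM, 0.65 for G5_DM, 0.060 for HeT-A, 0.15 for R1_DM, 0.25 for R2_DM and 0.060 for TAHRE. Without ribosomal RNA in the library size it turned to -0.23 for BS and -0.15 for LINEJ1_DM, with a filter of 1 read to -0.17 and -0.088 for the same elements, and with all 6 libraries in one fit to -0.036 for BS. Summed over copies with at least 3 reads in the non-crosslinked input, it turned to -1.21 for BS, -0.48 for DMCR1A, -1.02 for DMRT1B, -0.041 for DOC5_DM, -0.17 for G2_DM and -0.56 for LINEJ1_DM. Leaving out a library gave a range of -0.23 to 0.57 for BS, -0.12 to 0.65 for LINEJ1_DM, -0.42 to 0.15 for DOC6_DM, -0.57 to 0.051 for BS2, -0.49 to 0.22 for DOC4_DM, -0.41 to 0.43 for G5A_DM, -0.40 to 0.35 for G5_DM and -0.035 to 0.55 for FW3_DM. The cause of these changes was not tested. A change of scale alone moves all entries by about the same amount. This does not cover the filters, the left-out libraries, limma or the choice of copies. The library size without ribosomal RNA also changed which entries passed the filter, 8066 against 8968.

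The labels state no pairing, and the correlation of same-numbered libraries' deviations was 0.0702. With the replicate number as a block, 14 elements were higher and 11 lower, and 43 copies were higher and 49 lower. Depth limits the elements with few reads, and 4 of 38 could not be tested. Over 11809 simulated entries, 24.5% of the 4-fold differences between the ratios were recovered. That rate does not single out LINE elements or entries with few reads.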
